A study of Homo sapiens with 15 samples.

Results

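FGF21, INHBE, GDF15, STC2 and ADM2, 5 genes that encode secreted hormones of the cellular stress response, were followed across 15 RNA-seq libraries of human HEK293 cells, an established line derived from embryonic kidney. They were taken by name from a deposited table of 55773 genes and were chosen by their normalized counts in all 5 groups, which were already known, so their levels and fold changes are given as a description, with no p-value. Test calls of these genes rest on the values they were chosen by, and are counted only beside the share of all genes called. The gene lists further below were also chosen with earlier results of these data known, so adjusted p-values of their genes are descriptive. In the overexpression experiment, 3 groups of 3 libraries came from Flp-In T-REx 293 cells carrying tagged Flag/HA-ZC3H7A, tagged Flag/HA-ZC3H7B or the Flag/HA control. These 3 groups were all labelled as treated with doxycycline, which was given at 1 µg/mL for 24 h to induce the transgenes, and the line was grown with zeocin and blasticidin. In the depletion experiment, by their labels DD cells had ZC3H7A knocked out and expressed an shRNA to ZC3H7B, and Parental cells carried a control shRNA, with 3 libraries each. Both had been selected with puromycin at 5 µg/mL and were released 2 passages before collection. ZC3H7A and ZC3H7B are paralogous zinc-finger proteins that bind RNA. The labels do not say whether a group was made from 1 clone or whether the 3 libraries of DD or of Parental were cultured apart. The p-values for DD therefore measure a spread that may be technical. In both experiments, if a group is 1 clone, differences between clones cannot be told apart from those of the transgene or depletion. Libraries of the experiments were made by different protocols, and levels were therefore compared within an experiment.

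Cells that lack amino acids, fold proteins poorly in the endoplasmic reticulum or have failing mitochondria phosphorylate the initiation factor eIF2, which favours translation of the transcription factor ATF4. ATF4 and its partners bind composite C/EBP-ATF elements and switch on genes for amino acid supply and a small set of hormones that carry the stress signal out of the cell. FGF21 is made mainly by the liver and acts on cells with the co-receptor beta-Klotho (KLB) and an FGF receptor. INHBE encodes the beta E subunit of activin E, a TGF-beta family hormone of the liver, for which ACVR1C (ALK7) on fat cells is a receptor. GDF15 is a distant TGF-beta family member that lowers appetite through GFRAL and RET in the hindbrain, and its transcription also responds to EGR1. STC2, stanniocalcin 2, is a glycoprotein that inhibits the protease PAPP-A. ADM2, also called intermedin, is a calcitonin family peptide that acts on CALCRL paired with a RAMP protein.

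By the GENCODE 29 annotation on GRCh38, FGF21 (ENSG00000105550) lies at chr19:48755559-48758333 and INHBE (ENSG00000139269) at chr12:57452323-57459280, both on the plus strand. GDF15 (ENSG00000130513) lies at chr19:18374731-18389176 and ADM2 (ENSG00000128165) at chr22:50481556-50486440, also on the plus strand, and STC2 (ENSG00000113739) lies at chr5:173314713-173329503 on the minus strand. The microRNA gene MIR3189 lies inside GDF15 on the same strand and was listed at 0 in all 15 libraries. RefSeq promoter windows on GRCh38.p14, each 300 bases long and read 5′ to 3′ on the strand of the gene, were matched for FGF21, GDF15, STC2 and ADM2. The RefSeq starts of GDF15 and STC2 lie inside their GENCODE spans. Those of FGF21 and STC2, which were both higher with either transgene, and of GDF15, which was lower with both, are shown for comparison, at chr19:48755274-48755573 (plus), chr5:173328365-173328664 (minus) and chr19:18385908-18386207 (plus), with capitals marking a match to the core of a C/EBP-ATF element:
FGF21 promoter: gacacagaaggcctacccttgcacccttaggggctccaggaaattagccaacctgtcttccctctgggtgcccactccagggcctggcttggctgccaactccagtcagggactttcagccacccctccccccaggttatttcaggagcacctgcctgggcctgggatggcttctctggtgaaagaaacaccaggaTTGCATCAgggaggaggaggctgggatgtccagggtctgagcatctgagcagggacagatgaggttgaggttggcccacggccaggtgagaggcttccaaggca
STC2 promoter: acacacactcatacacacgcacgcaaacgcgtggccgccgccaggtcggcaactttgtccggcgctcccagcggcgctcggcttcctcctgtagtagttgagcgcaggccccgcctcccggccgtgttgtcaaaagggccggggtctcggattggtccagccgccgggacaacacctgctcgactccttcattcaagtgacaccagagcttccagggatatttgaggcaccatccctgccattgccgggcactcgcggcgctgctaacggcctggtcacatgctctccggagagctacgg
GDF15 promoter: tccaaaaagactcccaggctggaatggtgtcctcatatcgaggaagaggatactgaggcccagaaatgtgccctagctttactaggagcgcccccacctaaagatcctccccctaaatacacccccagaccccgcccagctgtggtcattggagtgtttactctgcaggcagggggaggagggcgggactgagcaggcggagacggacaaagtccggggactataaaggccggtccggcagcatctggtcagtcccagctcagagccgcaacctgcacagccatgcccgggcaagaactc
The core searched was TGATGNAA on both strands, and 3.67% of 27305 RefSeq promoter windows held it. The FGF21 window held 1 match, TTGCATCA on the minus strand of the window, at bases 197 to 204, which begins 54 bases before the annotated start. The STC2, GDF15 and ADM2 windows held no match to this core. None of these 4 windows held the cyclic AMP response element TGACGTCA, which is its own reverse complement and was found in 1.98% of all windows. The windows also differed in base composition. FGF21 had 60% G+C and 1 CpG, GDF15 59.3% and 11, STC2 64% and 28, and ADM2 76.7% and 33, against a median of 58.3% G+C over all windows.

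The overexpression libraries held 45.5 to 57.6 M reads and the depletion libraries 12.2 to 15.5 M reads. Levels are normalized counts, which are whole reads divided by a factor per library. Fold changes are differences of log2 of the normalized count plus 1 with their standard error (SE) from limma, which understates the change of low genes. A gene was called where limma's Benjamini-Hochberg adjusted p was under 0.05. ZC3H7A transcripts were higher with the ZC3H7A transgene than in the control (log2 fold change 1.77), and ZC3H7B transcripts with the ZC3H7B transgene (2.19). The other paralog also differed, with ZC3H7B called higher with the ZC3H7A transgene (0.42) and ZC3H7A called lower with the ZC3H7B transgene (-0.68). In DD, ZC3H7B was lower than in Parental (-2.58), while ZC3H7A transcripts were not called (0.051). The RNA level of ZC3H7A thus did not show the labelled knockout, and protein was not measured here. Of 8 HEK293 markers, 8 had a mean of at least 10 in each overexpression group and 7 in DD and in Parental. Of 8 hepatocyte markers, none had a mean of at least 10 in any group, and FGB was at 0 in all of them. Their summed normalized count was 6.51 to 9.62 with ZC3H7A, 6.76 to 11.3 with ZC3H7B and 7.40 to 9.73 in the control, and 0 to 14.2 in DD and 4.44 to 17.3 in Parental. Summed fibroblast markers, led by COL1A1 with at most 3 of 6 at a mean of 10 or more, were 303 to 326 with ZC3H7A, 297 to 348 with ZC3H7B and 194 to 229 in the control, and 278 to 303 in DD and 244 to 353 in Parental. DCN was at 0 with ZC3H7A, ZC3H7B and in DD, COL1A2 with ZC3H7B, in DD and in Parental, and LUM with ZC3H7B. The part of these markers in the hormone levels was not tested.

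FGF21 was low in control cells and higher with either transgene, most of all with ZC3H7B. With ZC3H7A, its normalized counts were 47.5, 46.0 and 39.7. With ZC3H7B they were 136, 132 and 113. In the control they were 6.92, 8.59 and 6.88. The libraries of the 3 groups did not overlap, and the ZC3H7B libraries were the highest. FGF21 averaged 44.4 ± 4.15 with ZC3H7A, 127 ± 12.2 with ZC3H7B and 7.46 ± 0.975 in the control (SD, n = 3 each). The log2 fold change against the control was 2.43 (SE 0.136) with ZC3H7A and 3.92 (SE 0.136) with ZC3H7B. Among 17673 tested genes, this was the 60th highest value with ZC3H7A and the 4th highest with ZC3H7B. All control values were below 10, so FGF21 passed the filter on low values only through the transgene libraries. The ranks are therefore a description. The raw reads over 3 libraries numbered 227 with ZC3H7A, 739 with ZC3H7B and 43 in the control. Scaled for depth, the read ratio was 5.99 (95% exact interval 4.31 to 8.51) for ZC3H7A over control and 17.1 (12.6 to 23.9) for ZC3H7B over control. These intervals cover counting error only. With a pseudocount of 10 in place of 1, the log2 fold changes were 1.64 and 2.97, so their size depends on how low counts are treated.

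INHBE showed the same order of groups from a higher starting level. With ZC3H7A, its normalized counts were 172, 132 and 155. With ZC3H7B they were 511, 546 and 489. In the control they were 66.4, 53.8 and 67.2. Again the 3 groups did not overlap, with ZC3H7B the highest and the control the lowest. INHBE averaged 153 ± 19.9 with ZC3H7A, 515 ± 28.7 with ZC3H7B and 62.5 ± 7.52 in the control (SD, n = 3 each). The log2 fold change against the control was 1.28 (SE 0.110) with ZC3H7A, the 323rd highest of the tested genes, and 3.03 (SE 0.110) with ZC3H7B, the 12th highest. As folds, these were 2.42 and 8.17.

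STC2 was the most abundant hormone transcript per length in every group and had the smallest fold difference from the control of the 3 that were higher. With ZC3H7A, its normalized counts were 4294, 3893 and 4068. With ZC3H7B they were 3849.6, 3668 and 3556. In the control they were 2421, 2354 and 2285. All libraries with a transgene lay above all control libraries, but the ZC3H7A and ZC3H7B libraries were close together. STC2 averaged 4085 ± 201 with ZC3H7A, 3691 ± 148 with ZC3H7B and 2354 ± 68.3 in the control (SD, n = 3 each). The log2 fold change against the control was 0.79 (SE 0.0480) with ZC3H7A and 0.65 (SE 0.0480) with ZC3H7B. FGF21 and INHBE had the larger folds from lower levels.

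GDF15 moved the other way. With ZC3H7A, its normalized counts were 38.5, 33.2 and 33.8. With ZC3H7B they were 25.5, 30.6 and 39.0. In the control they were 169, 153 and 161. Every library with a transgene lay below every control library, and the ZC3H7A and ZC3H7B libraries overlapped. GDF15 averaged 35.1 ± 2.91 with ZC3H7A, 31.7 ± 6.83 with ZC3H7B and 161 ± 7.74 in the control (SD, n = 3 each). The log2 fold change against the control was -2.17 (SE 0.141) with ZC3H7A, the 133rd lowest of the tested genes, and -2.33 (SE 0.141) with ZC3H7B, the 49th lowest. The remaining level was 0.223 of the control with ZC3H7A and 0.199 with ZC3H7B. In bulk RNA, fewer cells that make a transcript and less of it per cell cannot be told apart, for GDF15 or for the other genes.

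ADM2 was near the limit of detection. With ZC3H7A it had 2, 1 and 1 reads. With ZC3H7B it had 4, 11 and 8 reads, and in the control 5, 10 and 9 reads. The ZC3H7A libraries lay below all others, while the ZC3H7B and control libraries overlapped. ADM2 was too low to be tested. Scaled for depth, the read ratio was 0.189 (95% exact interval 0.0477 to 0.551) for ZC3H7A over control and 0.954 (0.515 to 1.77) for ZC3H7B over control.

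**Figure D1:**
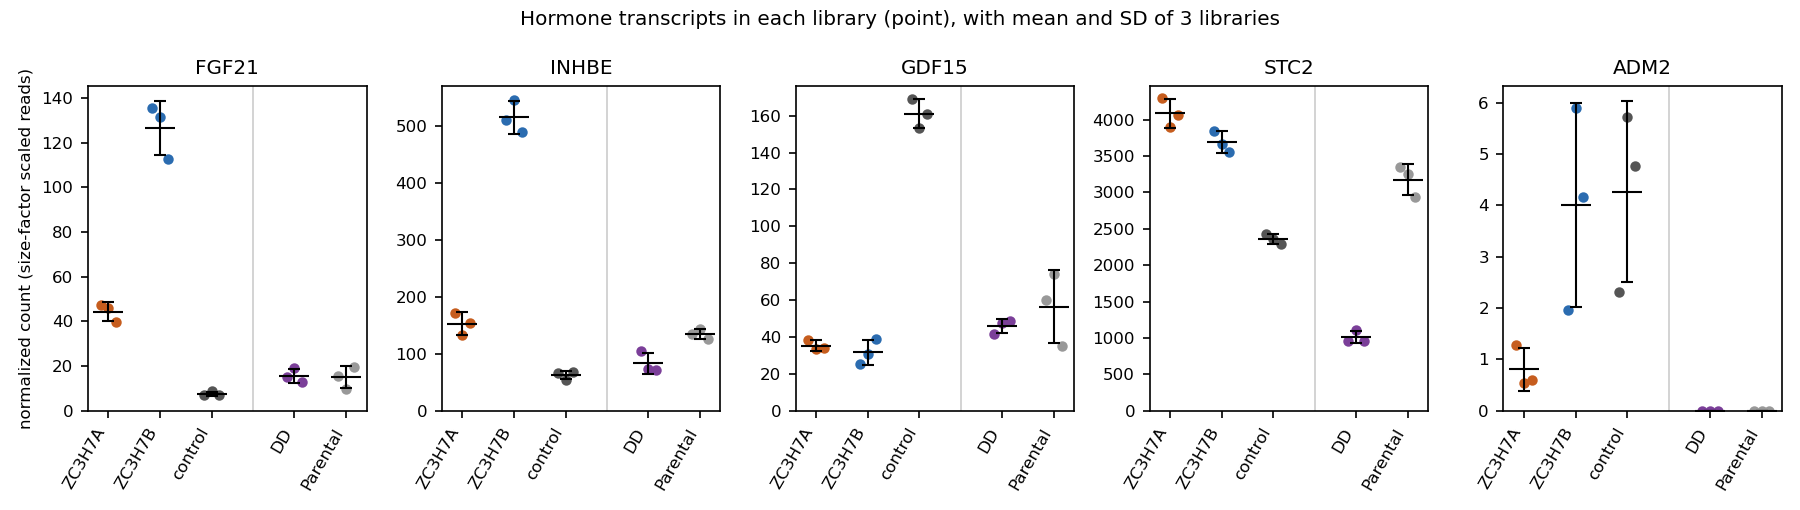
Normalized counts of the 5 hormone genes (a panel each, with its own vertical scale from 0) in each library (points), with the mean and SD of 3 libraries. Levels are to be compared only within an experiment. Among the overexpression groups, FGF21 and INHBE were highest with ZC3H7B and GDF15 was highest in the control (mean 161). In the depletion experiment, which had fewer reads per library, STC2 was lower in DD (mean 1009) than in Parental. ADM2 had no read in DD or Parental.

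Of the 4 hormone genes with enough reads to test, 3 were called higher with ZC3H7A, where 34.7% of all tested genes were, and 1 was called lower, where 41.2% were. With ZC3H7B the counts were again 3 higher, against 32.0% of all tested genes, and 1 lower, against 37.6%. Both comparisons share the control libraries and the genes were chosen with these values known, and FGF21 passed the filter only through transgene libraries. Nothing is therefore read from the counts. The control libraries lay outside the range of the ZC3H7A libraries for 5 of 5 hormone genes, where 77.9% of tested genes had groups that did not overlap. With ZC3H7B they did so for 4 of 5, against 77.1% of tested genes, and ADM2 was the exception.

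The paralogs were also set against each other. FGF21 and INHBE were lower with ZC3H7A than with ZC3H7B, with log2 fold changes of -1.49 (SE 0.136) and -1.75 (SE 0.110), or 0.356 and 0.297 of the ZC3H7B level. GDF15 differed by 0.16 (SE 0.141), and its libraries overlapped. STC2 was slightly higher with ZC3H7A, by 0.15 (SE 0.0480), and passed the threshold under 12 of 20 alternative settings. Those under which it did not include the fits without ZC3H7A replicate 1 (0.11), ZC3H7B replicate 2 (0.14) or ZC3H7B replicate 3 (0.12). ADM2 had 4 reads with ZC3H7A and 23 with ZC3H7B, a scaled ratio of 0.198 (95% exact interval 0.0498 to 0.580). Of 4 tested hormone genes, 1 was called higher with ZC3H7A, against 23.9% of all tested genes, and 2 lower, against 20.4%. The libraries did not overlap for 4 of the 5 genes, against 49.2% of tested genes, with GDF15 the exception.

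In the libraries labelled DD, STC2 and INHBE were lower than in Parental, while GDF15 and FGF21 overlapped between the groups. STC2 had normalized counts of 960.1, 1104 and 963 in DD, against 3344, 3252 and 2934 in Parental. INHBE had 104, 73.4 and 71.6 in DD, against 135, 143 and 126 in Parental. For both genes every DD library lay below every Parental library. STC2 averaged 1009 ± 82.4 in DD and 3177 ± 215 in Parental (SD, n = 3 each), a log2 fold change of -1.65 (SE 0.0830) and the 222nd lowest of 18494 tested genes. INHBE averaged 83.1 ± 18.3 in DD and 135 ± 8.33 in Parental (SD, n = 3 each), a log2 fold change of -0.71 (SE 0.193). Without Parental replicate 2, DD replicate 2 or DD replicate 3, the log2 fold change of INHBE was -0.67, -0.64 and -0.62 and did not pass the threshold.

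GDF15 had normalized counts of 41.7, 47.4 and 48.4 in DD, against 59.9, 74.0 and 34.9 in Parental. The Parental libraries spanned the DD libraries, and the log2 fold change was -0.23 (SE 0.292). FGF21 had 8, 8 and 6 reads in DD, against 7, 4 and 9 reads in Parental, which are normalized counts of 15.1, 18.95 and 12.6 against 15.5, 9.86 and 19.6. Its scaled read ratio was 1.02 (95% exact interval 0.529 to 1.96), so a difference within those bounds was not detectable at this depth. ADM2 had no read in any of these 6 libraries. A floor of 3 reads corresponds to 5.68 to 7.40 normalized counts here, which is above the mean of ADM2 in the overexpression control, 4.26. Of 4 tested hormone genes, none was called higher in DD, against 14.7% of all tested genes, and 2 were called lower, against 14.8%. The libraries did not overlap for 2 of the 5 genes, against 43.0% of tested genes.

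**Figure D2:**
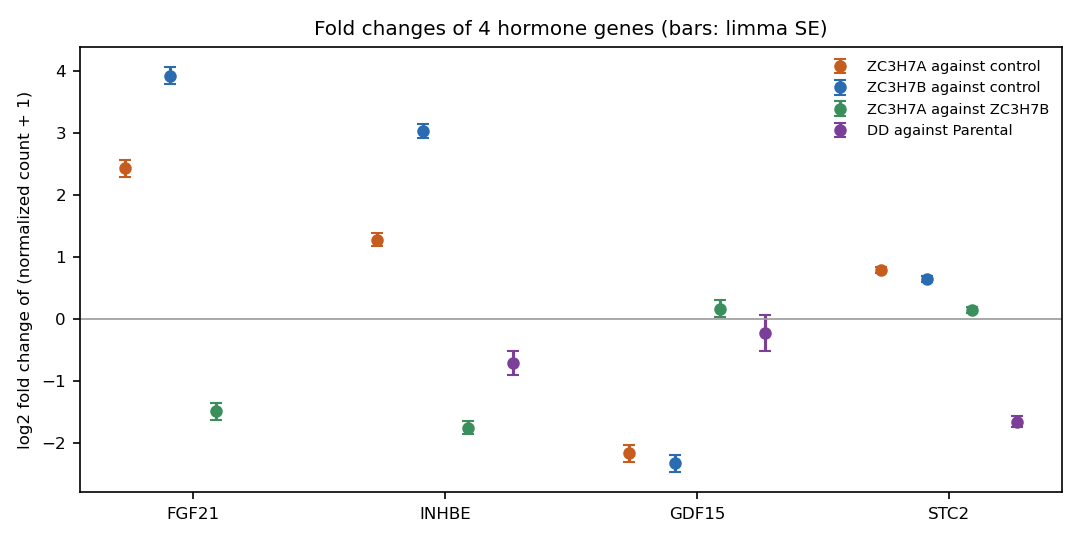
Log2 fold changes of normalized counts plus 1 (vertical axis) for FGF21, INHBE, GDF15 and STC2, with bars for limma's SE and a colour for each comparison. FGF21 is left out of DD against Parental for its few reads. INHBE and STC2 lie above 0 with either transgene and below 0 in DD, while GDF15 lies near -2.17 and -2.33 with the transgenes.

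Per kilobase of merged exons, the order of the hormone genes differed between groups. With ZC3H7A, the normalized counts per kilobase were 667 for STC2, 50.7 for INHBE, 33.8 for FGF21, 16.8 for GDF15 and 0.188 for ADM2. With ZC3H7B, they were 602 for STC2, 171 for INHBE, 96.3 for FGF21, 15.2 for GDF15 and 0.937 for ADM2. In the control, they were 384 for STC2, 77.2 for GDF15, 20.7 for INHBE, 5.67 for FGF21 and 0.997 for ADM2. GDF15 thus stood above INHBE and FGF21 per length in the control and below both with either transgene. In DD the values were 165 for STC2, 27.6 for INHBE, 22.0 for GDF15 and 11.8 for FGF21. In Parental they were 518 for STC2, 44.8 for INHBE, 27.0 for GDF15 and 11.4 for FGF21. The libraries of genes next to each other in these orders did not overlap in any group. In DD the gap was narrow, with 23.8 in the lowest INHBE library and 23.2 in the highest GDF15 library. These orders depend on the merged exon lengths, and other lengths were not tried.

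The genes whose levels relative to the baseline group of each experiment were most like those of a hormone gene were found over 15 libraries among 14378 genes, as a description in which libraries of a group are not independent points. FGF21 was most like TTI1 (Pearson r = 0.991), and CCDC94, SH3GL1, MYBL2 and SF3A2 came next. INHBE was most like POLR2E (r = 0.991), followed by CSNK1G2, C19orf70, VAV1 and NDUFS7. GDF15 was most like GPR155 (r = 0.986), followed by PARM1, CEPT1, IGF2 and FGF5. STC2 was most like CMIP (r = 0.996), followed by TSC22D3, PFDN5, CDK16 and IFRD2. ADM2 rests on too few reads for such a comparison. Pearson r does not reflect the size of a change. TTI1 changed by 0.55 with ZC3H7A and 0.97 with ZC3H7B on the log2 scale, against 2.43 and 3.92 for FGF21. POLR2E changed by 0.44 and 0.97, against 1.28 and 3.03 for INHBE. Shared regulation was not tested, and the chromosome positions of the like genes were not looked up.

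Fold changes in the overexpression groups varied with codon content across genes, and the hormone genes were read against this trend. All 5 had fewer A- or T-ending codons, as a share of the coding sequence, than the median gene, with 30.1% in FGF21, 35.7% in INHBE, 19.8% in GDF15, 24.5% in STC2 and 20.9% in ADM2, against a median of 39.3% over 19470 genes. Among genes of the same twentieth by this share, the median log2 fold change with ZC3H7A was 0.30 for the twentieth of FGF21, 0.23 for that of INHBE, 0.38 for that of GDF15 and 0.30 for that of STC2. With ZC3H7B these medians were 0.19, 0.19, 0.24 and 0.20 in the same order of genes. FGF21, INHBE and STC2 lay above the median of their twentieth with both transgenes, and GDF15 lay below it, opposite to genes of like codon content. In DD the medians of the same twentieths were 0.014 to 0.041, and INHBE and STC2 lay below theirs.

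**Figure D3:**
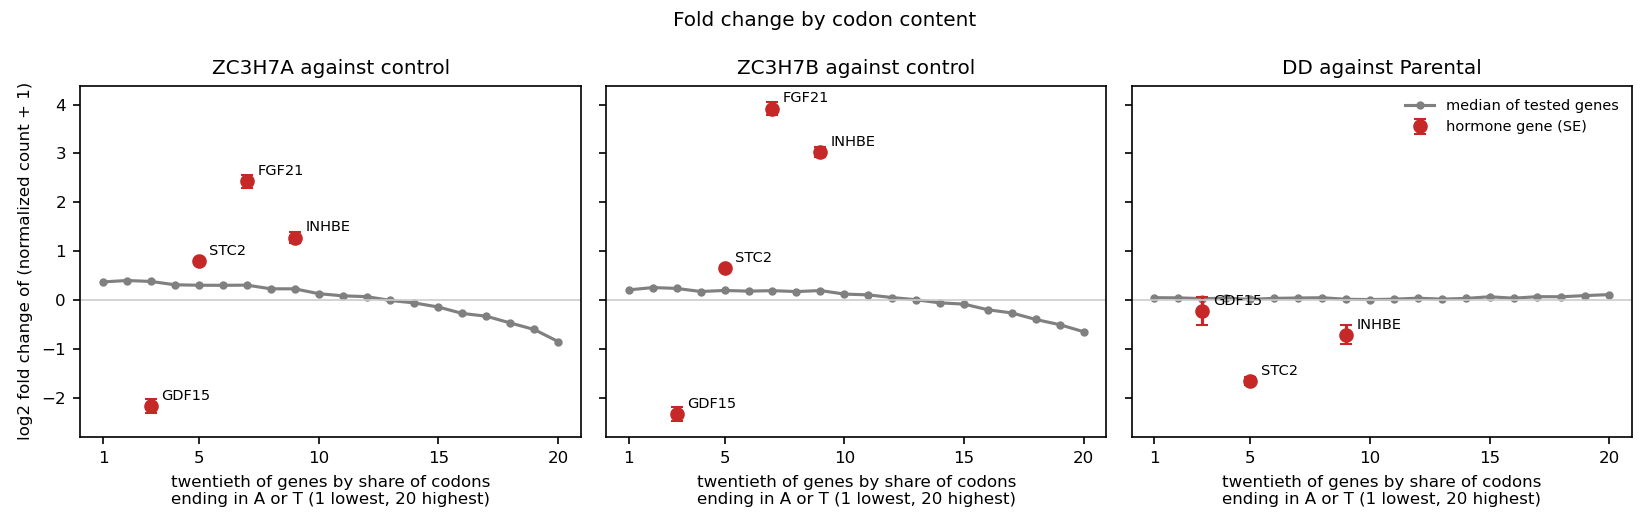
Median log2 fold change of tested genes in 20 equal groups by their share of A- or T-ending codons (grey line), with the hormone genes (red, bars show limma's SE). FGF21 is left out of DD against Parental. GDF15 lies below the grey line in the overexpression panels, and STC2 lies at 0.79 and 0.65 there and at -1.65 in DD.

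Transcription factors and kinases that act upstream of these hormones were taken as a list of 22 genes, all of them tested. With ZC3H7A, 12 were called higher and 8 lower, where 34.7% and 41.2% of all tested genes were, with a median log2 fold change of 0.21, against -0.070 over all tested genes. With ZC3H7B, 13 were called higher and 9 lower, where 32.0% and 37.6% of all tested genes were, with a median of 0.27 against -0.055. In DD, 3 were called higher and 9 lower, where 14.7% and 14.8% of all tested genes were, with a median of -0.16 against 0.013. ATF4 averaged 9778 ± 73.7 in DD and 20009 ± 1404 in Parental (SD, n = 3 each), and its log2 fold changes were 0.73 with ZC3H7A, 0.54 with ZC3H7B and -1.03 in DD (limma adjusted p = 1.38e-08, 2.45e-07 and 9.79e-07). CEBPB, a partner of ATF4, changed by 1.39, 1.10 and -0.78, and TRIB3, a pseudokinase that restrains ATF4, by 1.04, 0.84 and -0.97, all called. DDIT3 (CHOP), at 0.17 with ZC3H7A and 0.45 with ZC3H7B, and NUPR1, a stress-induced chromatin protein, at 0.60 and 1.26, were lower with ZC3H7A than with ZC3H7B, as FGF21 and INHBE were. For both, the difference of ZC3H7A from ZC3H7B was itself called (limma adjusted p = 0.00614 for DDIT3 and 0.000145 for NUPR1). Most of the list did not share this direction. Of the 22 genes, 7 were called higher with ZC3H7A than with ZC3H7B, 3 lower and 12 were not called. Over all tested genes, 23.9% were called higher and 20.4% lower. In DD, DDIT3 fell by 1.74 and NUPR1 by 2.00 on the log2 scale. CEBPG, which pairs with ATF4, was called higher with both transgenes (0.26 and 0.39) and lower in DD (-0.47).

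Among factors known to act on GDF15, EGR1 was called lower with both transgenes, at -0.92 and -0.75. ATF3, which ATF4 induces, was called lower with ZC3H7A (-0.36) and higher with ZC3H7B (0.21). Neither EGR1 (0.011) nor ATF3 (0.15) was called in DD, where the GDF15 libraries overlapped. The part of either factor in the GDF15 level was not tested. ATF5 was called higher with both transgenes (0.99 and 0.96) and also in DD (0.33). PPARA, which drives FGF21 in fasted liver, was not called with ZC3H7A (0.05) and was called lower with ZC3H7B (-0.20) and in DD (-0.37). Among the eIF2 kinases, EIF2AK1 was called higher with both transgenes (0.25 and 0.20), EIF2AK2 (-0.77 and -0.89) and EIF2AK3 (-0.30 and -0.26) lower with both, and EIF2AK4 lower with ZC3H7B (-0.16). The other factors on the list were CEBPA (0.74 with ZC3H7A and 0.46 with ZC3H7B), CEBPD (1.16 and 0.42) and XBP1 (0.37 and 0.33), called higher with both. ATF6 (-0.30 and -0.27), HIF1A (-0.75 and -0.86), PPARGC1A (-0.71 and -0.54) and NFE2L2 (-0.37 and -0.39) were called lower with both. In DD, XBP1 (-0.27) was called lower, and ATF6 (0.49) and HIF1A (0.40) were called higher.

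Targets of the integrated stress response that stay in the cell were taken as 30 genes, of which 29 were matched and tested. With ZC3H7A, 23 were called higher and none lower, against 34.7% and 41.2% of all tested genes, and the median log2 fold change was 0.62, against -0.070. With ZC3H7B, 25 were called higher and 2 lower, against 32.0% and 37.6%, and the median was 0.62, against -0.055. In DD, 1 was called higher and 23 lower, against 14.7% and 14.8%, and the median was -0.57, against 0.013. CHAC1, which degrades glutathione, changed by 1.81 with ZC3H7A, 1.96 with ZC3H7B and -1.18 in DD, and SLC6A9, a glycine transporter, by 1.51, 1.30 and -1.60, all called. PYCR1, an enzyme of proline synthesis, changed by 1.25, 1.01 and -1.20, also all called. The values of STC2 (0.79, 0.65 and -1.65) had these signs in all 3 comparisons, and those of INHBE (1.28, 3.03 and -0.71) did too. GDF15 was lower where most of these targets were called higher. SLC7A11, the cystine transporter, was not called with ZC3H7A (-0.19), was called lower with ZC3H7B (-0.37) and had the largest fall of the list in DD (-2.41).

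**Figure D4:**
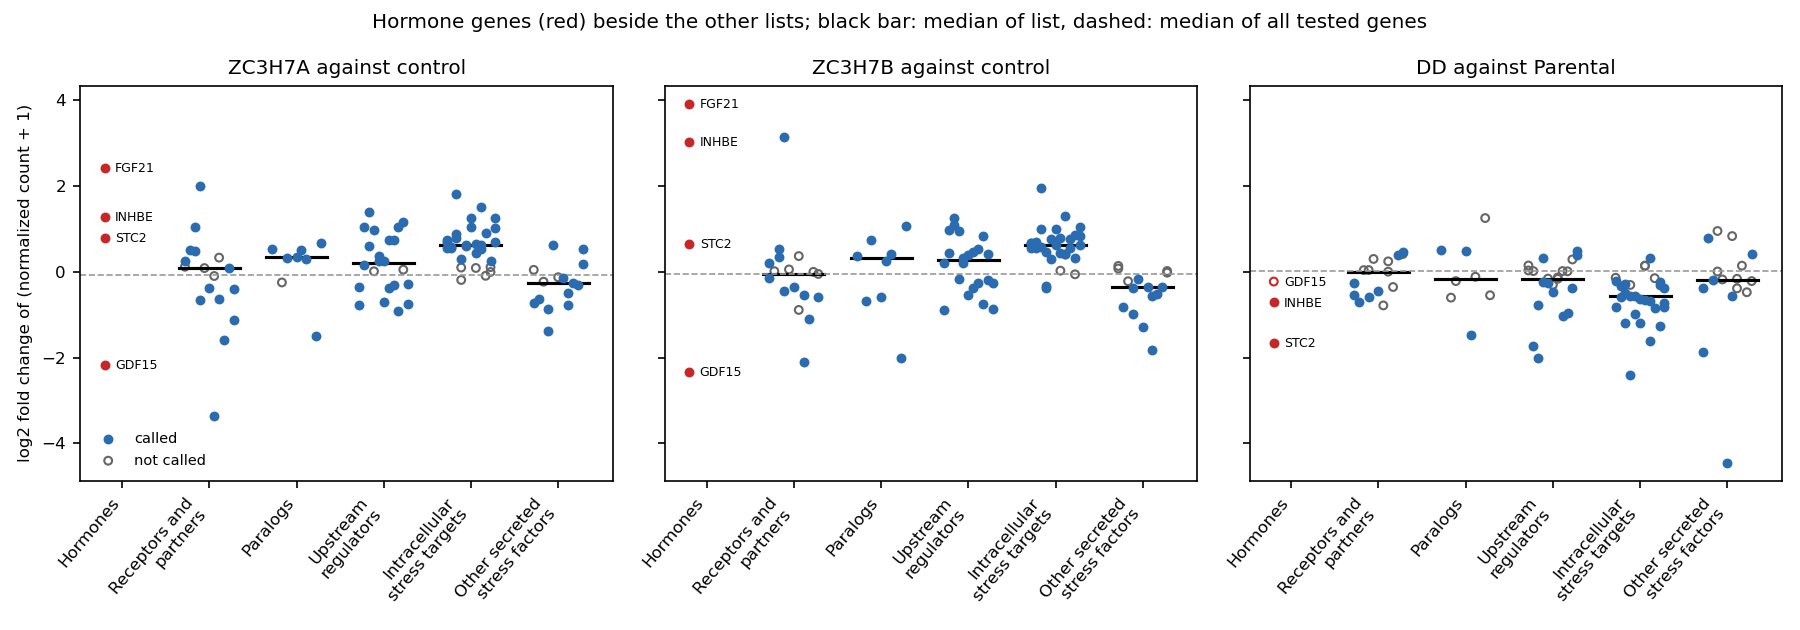
Log2 fold changes of the hormone genes (red) and of 5 gene lists, with filled points for called genes, open points for genes not called, a black bar for each list's median and a dashed line for the median of all tested genes. FGF21 is left out of DD against Parental. GDF15 lies at -2.17 and -2.33 where the medians of the intracellular targets are 0.62, and STC2 lies at -1.65 in DD where that median is -0.57.

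The receptors and binding partners of the hormones were largely expressed, with a mean of at least 10 in some group for 17 of 21. With ZC3H7A, 6 of 17 tested were called higher and 7 lower (median 0.086), shares close to the 34.7% and 41.2% of all tested genes. With ZC3H7B, 4 were higher and 7 lower (median -0.050), against 32.0% and 37.6%, and in DD, 2 of 15 were higher and 5 lower (median 0.0034), against 14.7% and 14.8%. For FGF21, the co-receptor KLB averaged 15.4 ± 4.86 with ZC3H7A, 16.2 ± 2.94 with ZC3H7B and 23.7 ± 1.59 in the control (SD, n = 3 each), and was called lower with both transgenes. KLB had 1 read in all of DD and 1 in all of Parental. FGFR1 was called higher with both (0.50 and 0.35) and FGFR3 lower with both (-0.39 and -0.34) and in DD (-0.44). FGFR2 averaged 2385 with ZC3H7A and 2231 in the control and was called higher, was not called with ZC3H7B, and was called higher in DD (0.40). FGFR4 was called higher with ZC3H7A (0.52), not with ZC3H7B (0.015), and lower in DD (-0.70).

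For INHBE, the receptor gene ACVR1C averaged 53.4 ± 14.2 with ZC3H7A, 9.06 ± 2.50 with ZC3H7B and 41.4 ± 3.04 in the control (SD, n = 3 each). It was called lower with ZC3H7B (log2 fold change -2.11, limma adjusted p = 3.29e-06), the group in which INHBE was highest, and not called with ZC3H7A (0.33) or in DD. ACVR1C also differed between the transgenes (2.44 for ZC3H7A against ZC3H7B, limma adjusted p = 2.49e-06). ACVR1B was called higher with both transgenes (0.25 and 0.21) and lower in DD (-0.54), and ACVR2B lower with both (-0.40 and -0.59) and higher in DD (0.46). ACVR2A (-0.66 and -0.45) and FST, which encodes the activin-binding follistatin (-1.59 and -1.10), were called lower with both, and FSTL3, another activin-binding protein gene, was not called in any comparison. For GDF15, GFRAL had a mean of at most 0.2 in every group, while RET averaged 187 ± 17.3 with ZC3H7A, 130 ± 11.2 with ZC3H7B and 90.4 ± 12.9 in the control (SD, n = 3 each) and was called higher with both. RET was not called in DD (0.41).

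For STC2, PAPPA had a mean of at most 2.9 in every group. Its relative PAPPA2 averaged 24.5 ± 3.99 with ZC3H7A, 54.7 ± 3.83 with ZC3H7B and 5.54 ± 1.99 in the control (SD, n = 3 each). The log2 fold changes were 2.00 and 3.13. All control values of PAPPA2 were below 10, so it passed the filter only through transgene libraries and its calls are not used. For ADM2, CALCRL was low and not called, with means of 9.82 with ZC3H7A, 6.31 with ZC3H7B and 10.5 in the control. RAMP2 averaged 3.91 ± 0.830 with ZC3H7A, 63.4 ± 7.83 with ZC3H7B and 48.7 ± 1.39 in the control (SD, n = 3 each), and was called lower with ZC3H7A. RAMP1 was called lower with ZC3H7A (-1.12), not with ZC3H7B (-0.050), and lower in DD (-0.58). FURIN, a protease that cleaves hormone precursors, was not called with ZC3H7A (0.12) and was called lower with ZC3H7B (-0.14) and in DD (-0.26).

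Close relatives of the hormones did not share their patterns in every case. Of 14 paralogs, 8 were tested. With ZC3H7A, 6 were called higher and 1 lower (median 0.33), against 34.7% and 41.2% of all tested genes. With ZC3H7B, 5 were higher and 3 lower (median 0.31), against 32.0% and 37.6%, and in DD, 2 were higher and 1 lower (median -0.17), against 14.7% and 14.8%. INHBA, the activin beta A subunit, was called lower with both transgenes, at -1.51 and -2.01, where INHBE was higher. INHBB, the beta B subunit, was called higher with ZC3H7A (0.34) and lower with ZC3H7B (-0.59). GDF11 was called higher with both (0.51 and 0.26) and lower in DD (-1.48). ADM, the adrenomedullin gene, was called higher with both (0.53 and 0.37) and in DD (0.50). STC1, the paralog of STC2, and FGF19 were too low to be tested.

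Of 23 other secreted factors of stressed cells, 15 were tested in the overexpression fit. With ZC3H7A, 3 were called higher and 9 lower (median -0.25), against 34.7% and 41.2% of all tested genes. With ZC3H7B, none was higher and 10 were lower (median -0.35), against 32.0% and 37.6%. In DD, 2 of 16 were called higher and 5 lower (median -0.18), against 14.7% and 14.8%. BMP2, a TGF-beta family ligand, was called lower with ZC3H7A (-0.77), with ZC3H7B (-1.83) and in DD (-1.87). CDNF, a neurotrophic factor of the endoplasmic reticulum, was called lower with both transgenes (-1.37 and -0.99), as was the cytokine LIF (-0.64 and -0.81), which was called higher in DD (0.79). METRNL was among the 3 called higher with ZC3H7A (0.63). The largest change called in DD was that of CXCL8, which was lower (-4.45), with 2 reads in DD and 54 in Parental. CXCL8 passed the filter only through the Parental libraries.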

How the data were processed

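Poly(A) RNA-seq of 15 HEK293-derived libraries was deposited by the authors as a single table of normalized counts, a signal in reads divided by a factor per library. Per the submitters' processing notes, hg19 was the build, and the tools were STAR 2.7.10b, HTSeq and DESeq2. Their settings and use of strand are not stated. Of the values, 100% came out whole to within 0.01 reads after division by the worth of 1 read, so reads could be recovered. The deposited signal plus 1 was taken to log2 and tested with limma 3.58.1 (R 4.3.3), with a mean-variance trend and two-sided p-values, over genes that reached 10 in 3 or more libraries. The 9 overexpression libraries shared a fit, and DD against Parental had its own of 6 libraries. As alternatives, recovered read counts were tested in edgeR 4.0.16 and in DESeq2 1.42.0. With 3 libraries against 3, an exact permutation test of a single gene cannot go below p = 0.1. Where a hormone gene had 30 or fewer reads in a group, its fold is a depth-scaled read ratio with an exact binomial interval. The code was tested on simulated data.

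The hormone genes and the gene lists were chosen with earlier results of these data known. The genes named are the hormone genes, every upstream regulator but 1 that is not reported here, receptors and binding partners with a mean of at least 10 in a group, and from the other lists called genes from among the 6 with the largest fold change per comparison. GFRAL, PAPPA, STC1 and FGF19 are named beside these as too low to be tested. Coordinates, exon lengths and coding sequences came from GENCODE 29 on GRCh38, matched by symbol, and promoters from RefSeq. An hg19 annotation was not used here.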

Additional observations from a re-analysis of the deposited data

How the results depend on the processing

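Each comparison was repeated with other pseudocounts, filters, scalings and tools, and with each library left out. No call reversed. Among the hormone genes, ADM2 was called lower with ZC3H7A when no filter was used, which makes 2 called lower. STC2, the 1 gene called higher with ZC3H7A than with ZC3H7B, lost its call (0 called) without a filter, under TMM scaling, with edgeR, in limma without a trend and with only the compared groups fitted, and ranged from 0 to 1 when a library was left out. In DD, the hormone genes called numbered 1 to 2, and those called lower 1 to 2, over left-out libraries. The cause of these changes was not tested. Over all genes, those called in DD against Parental ranged from 3563 to 6803 and those called higher from 1561 to 3564 over left-out libraries, with the lowest of both without DD replicate 1, and 1700 were called higher in limma without a trend. CPM scaling moved the median log2 fold change of all genes with ZC3H7A from -0.070 to -0.18. Same-numbered libraries correlated from -0.096 to 0.696 in overexpression and from -0.257 to -0.019 in depletion. Between ZC3H7A and ZC3H7B, the correlation was 0.522 for replicate 1, 0.032 for replicate 2 and 0.696 for replicate 3. ZC3H7A replicate 2 was nearer to ZC3H7B replicate 1 (0.555). With the control, no same-numbered library correlated above 0.097. The numbers thus do not pair the libraries throughout, but the transgene groups shared some deviations. With the replicate number as a block, genes called numbered 13482 with ZC3H7A against control, 12382 with ZC3H7B against control, 8301 for ZC3H7A against ZC3H7B and 4542 for DD against Parental, and the hormone genes called numbered 4, 4, 3 and 2, with no call of a hormone gene changed. Depth limits FGF21 and ADM2 in the depletion libraries. FGF21 in DD against Parental ranged from -0.17 to 0.29 on the log2 scale over 15 settings.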

Other observations

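Tested genes on either side of the hormone genes were looked up after their values were seen. FUT1, a fucosyltransferase gene on the opposite strand that starts 169 bases before FGF21, averaged 141 with ZC3H7A, 219 with ZC3H7B and 80.6 in the control, and was called higher with both (log2 fold change 0.80 and 1.43). In DD, FUT1 averaged 100 against 236 in Parental and was called lower (-1.22), while FGF21 had 22 reads in DD and 20 in Parental. GLI1, which lies 855 bases after INHBE, was not called in any comparison. In DD, however, its log2 fold change was -0.72, and every DD library lay below every Parental library, as for 43.0% of tested genes. R3HDM2, on the other side of INHBE, was called lower with ZC3H7A (-0.18), with ZC3H7B (-0.15) and in DD (-1.21). BCAT2, beyond FGF21, was called higher with both transgenes (1.03 and 0.95) and lower in DD (-0.23). Not all neighbours looked up are named here. SSBP4, beyond GDF15, was called higher with ZC3H7A (1.00) and with ZC3H7B (0.86), opposite in sign to GDF15. The neighbours of STC2, NKX2-5 (0.78 and 0.46) and BOD1 (0.47 and 0.61), were called higher with both transgenes, as STC2 was. In DD, NKX2-5 was called higher (0.21) and BOD1 lower (-0.66).

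Another hormone gene, CGA, which encodes the shared alpha subunit of the pituitary and placental glycoprotein hormones, was looked at after its values were seen. CGA averaged 47.9 ± 4.03 with ZC3H7A, 106 ± 6.60 with ZC3H7B and 519.6 ± 4.62 in the control (SD, n = 3 each), and was called lower with both. In DD it averaged 698 ± 26.2, against 413 ± 29.996 in Parental (SD, n = 3 each), and was called higher (log2 fold change 0.76). CGA and GDF15 were both below the control with either transgene, but the GDF15 libraries of DD and Parental overlapped.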
